A study of Heterocephalus glaber with 2 samples.

Results

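The genes described here are 10 genes of muscle atrophy and of the stress response of muscle fibres, measured in the dorsal skin of old and young naked mole-rats. They are the ubiquitin ligase genes TRIM63, FBXO32 and FBXO30, the transcription factor genes FOXO1, FOXO3 and KLF15, the growth inhibitor gene MSTN, and ANKRD1, ANKRD2 and CSRP3, whose proteins sit at the sarcomere. They were chosen by gene name, as the locus of each name with the highest mean, from 24514 loci in the tables. Each name matched 1 locus, and all 10 were among the 12753 loci tested, whose average over the libraries reached 1 FPKM. FPKM is the number of sequenced fragments scaled to the length of a locus and to the size of the library, so levels of different genes are set side by side per length. The choice was made with earlier results of the same libraries known, among them that TRIM63 differed between the library numbers. The values of the 10 genes in old and young skin are therefore a description, and no test of them is used as support.

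The study asked how the skin transcriptome of the naked mole-rat (Heterocephalus glaber), a long-lived rodent, differs with age. Total RNA of full-thickness dorsal skin was sequenced after removal of ribosomal RNA. The old group was aged 19 years and the young group 4 years, with no treatment or genotype named for either, and each group has a table numbered 1 and a table numbered 2. These 4 tables are called old 1, old 2, young 1 and young 2. GEO holds 1 sample record per age, and nothing in the labels ties the 2 libraries of an age to different animals, so any p-value covers the spread between libraries, which may be technical. With 2 libraries against 2, an exact two-sided permutation test of a single gene could not go below p = 0.333.

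In mice, rats and humans, the ligases TRIM63 (also called MuRF1) and FBXO32 (atrogin-1) mark muscle protein for breakdown by the proteasome, and their transcripts climb in fasting, disuse, denervation and glucocorticoid excess. FOXO1 and FOXO3 drive both ligase genes when insulin and IGF1 signalling through the kinase AKT is low, because AKT keeps these factors out of the nucleus. Myostatin, the product of MSTN, acts through activin receptors and SMAD proteins to limit muscle growth, while ANKRD1, ANKRD2 and CSRP3 respond to stretch and injury of the fibre. In rodents a sheet of striated muscle, the panniculus carnosus, lies beneath the dermis of the trunk, and full-thickness skin can include it.

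The libraries stood apart by number as well as by age. Small structural RNAs made up 51.1% of summed FPKM in old 1 and 46.8% in young 1, against 0.327% in old 2 and 0.0933% in young 2. Mitochondrial loci made up 4.06% in old 1 and 5.77% in young 1, against 29.6% in old 2 and 23.2% in young 2. Old was therefore set against young within each number, and the 2 numbers are given side by side. Because FPKM tables hold no counts, depth is unknown and no counting interval can be given. limma, fitted to log2(FPKM + 1) of all 12753 loci with Benjamini-Hochberg adjustment, called 0 loci (0.0%) between old and young at an adjusted p under 0.05, and 0 of the 10 genes. With table number as a further term it called 3 loci (0.0235%) and again 0 of the 10 genes. At an unadjusted p under 0.05 it gave 78 loci (0.612%), of which 25 were higher and 53 lower in old skin, and 1 of the 10 genes, ANKRD2, was among them. ANKRD2 passed the filter on the mean only through the old libraries and was chosen with its values known, so nothing is read from this.

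Striated muscle transcripts were abundant in all 4 libraries. Of 26 listed skeletal muscle fibre markers 22 matched a locus, and their summed level was 6716 FPKM in old 1 and 7474 FPKM in old 2, against 5299.7 FPKM in young 1 and 4903 FPKM in young 2. The sum was thus 1.27-fold higher in old skin in number 1 and 1.52-fold higher in number 2. The median log2 ratio of FPKM + 1, old over young, of the 22 loci was 0.46 in number 1 and 0.99 in number 2. Past 2-fold higher in old skin were 4 in number 1 and 11 in number 2, against 2.36% and 4.33% of all tested loci. Past 2-fold lower were 0 in either number, against 1.83% and 5.55%. Of the 22 loci, 17 were higher in old skin in both numbers, against 26.7% of all tested loci. In both numbers 1 was lower, against 23.1%. At the floor in any library were 0 of the 22, and limma called 0. ACTA1, skeletal actin, stood at 1832 and 1332 FPKM in old skin, against 1349 and 871 FPKM in young skin, and MB, myoglobin, at 419.7 and 1532 FPKM against 468 and 940.0 FPKM, and the ages overlapped for both. Of 7 matched cardiac muscle markers, 2, NPPA and MYL7, were at the floor of the tables in all 4 libraries. MYL4, another marker of that list, stood at 1.87 and 1.40 FPKM in old skin, against 0.432 and 7.72 FPKM in young skin. In whole skin, a difference in the number of muscle fibres and a difference in RNA per fibre cannot be told apart.

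Markers of other cell types also differed between the libraries. Summed fibroblast markers (8 of 8 matched) stood at 962 and 325 FPKM in old skin, against 6362 and 9018 FPKM in young skin. In both numbers 7 of the 8 were lower at the older age, against 23.1% of all tested loci, with 0 called by limma. Most of the sum came from the collagens COL1A1, COL3A1 and COL1A2. The median log2 ratio of the 8 was -0.11 in number 1 and -1.81 in number 2, and FBLN1 was higher in old skin in number 1, at 36.3 FPKM against 17.1 FPKM. Keratinocyte markers (7 of 8) summed to 3345 and 5766 FPKM against 3320 and 7294 FPKM. This sum was higher in number 2 at both ages, most of it from KRT10 and KRT1, while DSP, ITGA6 and TP63 were lower in number 2 at both ages. Adipocyte markers (7 of 8), from a tissue that also expresses KLF15 and the FOXO genes, summed to 786 and 154 FPKM in old skin against 476 and 266 FPKM in young skin, higher in number 1 at both ages. The part of these cell types in the values below was not tested.

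**Figure D1:**
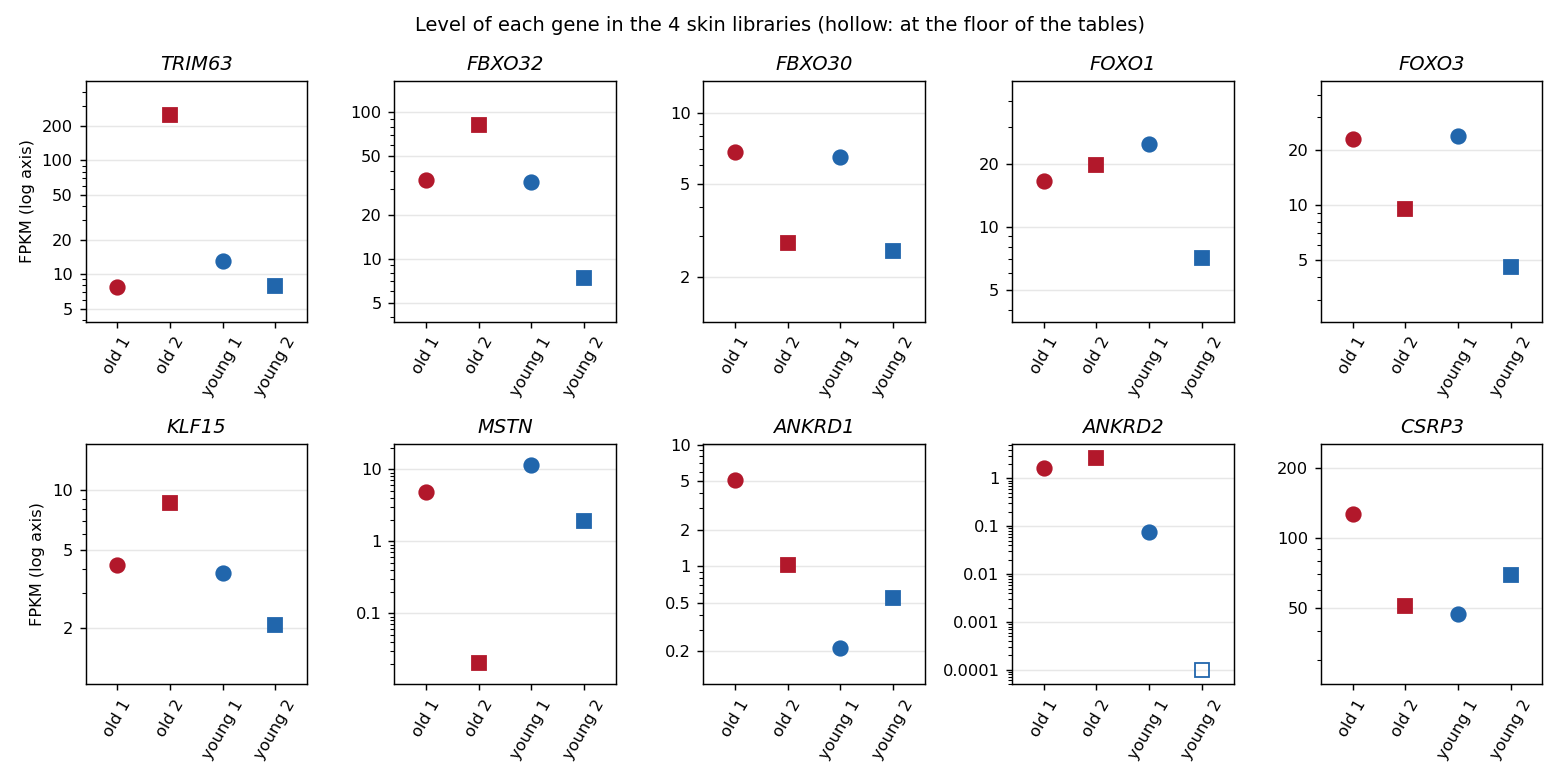
Level of each of the 10 genes in FPKM on log axes that differ between panels, with old libraries in red, young in blue, number 1 as circles and number 2 as squares; the hollow square of ANKRD2 in young 2 lies at the floor of 0.0001 FPKM. TRIM63 stands at 249.6 FPKM in old 2 and between 7.69 and 13.2 FPKM in the other 3 libraries.

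TRIM63, the ligase that acts on thick filament proteins such as myosin heavy chain, stood at 7.69 FPKM in old 1 and 249.6 FPKM in old 2, against 13.2 FPKM in young 1 and 7.86 FPKM in young 2. A single library, old 2, was high, the other 3 lay close together, and the age groups overlapped. TRIM63 was 1.72-fold lower in old skin in number 1 and 31.7-fold higher in number 2, which is -0.71 and 4.82 as log2 ratios of FPKM + 1. In number 2 a single locus of the 12753 tested had a higher ratio, that of PDK4, and for no locus did the ratio rise more from number 1 to number 2. In number 1, 499 loci had a lower ratio. By level, TRIM63 stood above 72.0% of detected loci in old 1 and 99.0% in old 2, against 85.7% in young 1 and 74.2% in young 2. The limma difference over the 4 libraries was 2.06 ± 1.55 on the log2 scale (SE, n = 2 libraries per age). Without old 2 it was -0.37. Without old 1 it was 4.48, with an adjusted p of 0.00689 in limma. The old group was then the single library old 2, whose high TRIM63 was known when the gene was chosen, and the spread came from the 2 young libraries alone, so this p is no support for a difference with age. That fit called 38 of 12753 loci (0.298%), 6 of them higher in old skin (0.047%).

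FBXO32, the subunit of a ubiquitin ligase that picks its substrates, stood at 34.7 FPKM in old 1 and 82.0 FPKM in old 2, against 33.5 FPKM in young 1 and 7.41 FPKM in young 2. Old 2 was high and young 2 was low, while old 1 and young 1 were nearly level. The gene was 1.04-fold higher in old skin in number 1 and 11.1-fold higher in number 2, where 8 of the tested loci had a higher ratio. Both old libraries lay above both young ones in the values as deposited. They overlapped once the libraries were rescaled, because old 1 lay just below young 1 under median-of-ratios scaling and also when small structural and mitochondrial RNAs were left out. The limma difference was 1.68 ± 0.88 on the log2 scale (SE, n = 2 libraries per age), and 0.66 without young 2.

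FBXO30, an F-box protein known in mice as a ligase of muscle atrophy, showed another pattern. It stood at 6.82 FPKM in old 1 and 2.79 FPKM in old 2, against 6.48 FPKM in young 1 and 2.60 FPKM in young 2. The libraries of number 1 were higher than those of number 2 at both ages, by log2 differences (number 2 minus number 1) of -1.04 in old skin and -1.05 in young skin, and the ages overlapped. Old and young differed by 1.05-fold in number 1 and 1.07-fold in number 2. Of the 3 ligases, then, TRIM63 and FBXO32 were both high in old 2, and FBXO30 was not.

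The balance of TRIM63 and FBXO32 differed between the libraries. TRIM63 had 0.221 times the FPKM of FBXO32 in old 1 and 3.04 times in old 2, against 0.395 times in young 1 and 1.06 times in young 2. FBXO32 was the higher of the pair in both libraries of number 1, and TRIM63 was the higher in both of number 2.

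FOXO1, a forkhead factor that drives both ligase genes and genes of fuel use in fasting, stood at 16.5 FPKM in old 1 and 19.7 FPKM in old 2, against 24.8 FPKM in young 1 and 7.06 FPKM in young 2. Young 2 was low and young 1 was the highest, so the ages overlapped. FOXO1 was 1.5-fold lower in old skin in number 1 and 2.79-fold higher in number 2. FOXO3, the forkhead factor best known for driving FBXO32 and autophagy genes, stood at 22.9 FPKM in old 1 and 9.41 FPKM in old 2, against 23.7 FPKM in young 1 and 4.58 FPKM in young 2. Number 1 was higher than number 2 at both ages, and the ages overlapped. The FOXO3 log2 ratio of old over young was -0.05 in number 1 and 0.90 in number 2. FOXO1 had 0.720 times the FPKM of FOXO3 in old 1 and 2.09 times in old 2, against 1.05 times in young 1 and 1.54 times in young 2.

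KLF15, a zinc finger factor induced by glucocorticoids that directs amino acid breakdown in muscle, stood at 4.17 FPKM in old 1 and 8.60 FPKM in old 2, against 3.81 FPKM in young 1 and 2.07 FPKM in young 2. Both old libraries lay above both young ones, also under both rescalings, but old 1 and young 1 differed little. The fold was 1.09 in number 1 and 4.15 in number 2, and 164 tested loci had a higher ratio in number 2. The limma difference was 0.87 ± 0.57 on the log2 scale (SE, n = 2 libraries per age).

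MSTN, the secreted inhibitor of muscle growth, ran the other way. It stood at 4.84 FPKM in old 1 and 0.0207 FPKM in old 2, against 11.3 FPKM in young 1 and 1.91 FPKM in young 2. Old was the lower age in both numbers, by 2.34-fold and by 92.3-fold, and number 2 was the lower number at both ages, so that old 1 lay above young 2 and the ages overlapped. The value in old 2 is so close to the floor of 0.0001 FPKM that its fold is uncertain. On log2(FPKM + 1), which damps low values, the ratios were -1.07 and -1.51, and the limma difference was -1.29 ± 1.09 (SE, n = 2 libraries per age). With table number as a further term the difference was -1.29 ± 0.28 (SE), with an adjusted p of 0.301 in limma. With age as the only term it was -0.04 without old 2 and -0.25 without young 1. Those fits leave the numbers unbalanced between the ages, and so take in part of the offset between numbers. MSTN was the single gene of the 10 that was lower in old skin in both numbers, against 23.1% of all tested loci.

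ANKRD1 and ANKRD2 encode ankyrin repeat proteins that bind titin, and both passed the mean of 1 FPKM only through the old libraries. ANKRD1 stood at 5.08 FPKM in old 1 and 1.02 FPKM in old 2, against 0.214 FPKM in young 1 and 0.544 FPKM in young 2. Old 1 was the highest and both old libraries lay above both young ones, by 23.7-fold in number 1 and 1.88-fold in number 2. In number 1, 14 tested loci had a higher ratio on FPKM + 1. ANKRD2 stood at 1.62 FPKM in old 1 and 2.65 FPKM in old 2, against 0.0754 FPKM in young 1, while young 2 was listed at the floor. The old libraries lay above the young ones here too, by 21.5-fold in number 1, and no fold is given for number 2. The ANKRD2 log2 ratios of FPKM + 1 were 1.29 and 1.87, and 130 tested loci had a higher one in number 1 and 113 in number 2. The limma differences were 1.36 ± 0.72 for ANKRD1 and 1.58 ± 0.57 for ANKRD2 on the log2 scale (SE, n = 2 libraries per age). These levels are low, and the depth behind them is unknown.

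CSRP3, the muscle LIM protein of the Z-disc, was the highest of the 10 genes in every library but old 2. It stood at 127 FPKM in old 1 and 51.3 FPKM in old 2, against 47.2 FPKM in young 1 and 69.7 FPKM in young 2. Old 1 was high, the other 3 libraries were closer together, and the ages overlapped. CSRP3 was 2.69-fold higher in old skin in number 1, where 91 tested loci had a higher ratio, and 1.36-fold lower in number 2.

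**Figure D2:**
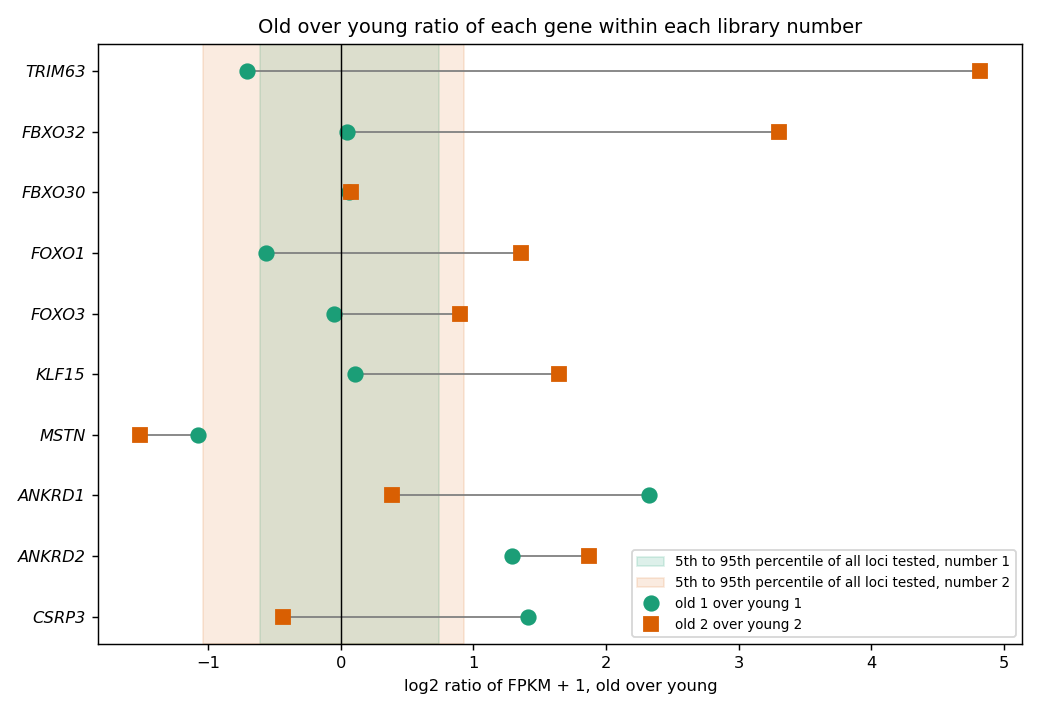
Log2 ratio of FPKM + 1, old over young, for each of the 10 genes in number 1 and in number 2, 1 library against 1 with no error. TRIM63 lies at -0.71 in number 1 and 4.82 in number 2, and MSTN is below 0 in both.

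Set side by side, 5 of the 10 genes (FBXO32, FBXO30, KLF15, ANKRD1 and ANKRD2) were higher in old skin in both numbers, against 26.7% of all tested loci, and 4 under either rescaling. Another 4 (TRIM63, FOXO1, FOXO3 and CSRP3) went opposite ways in the 2 numbers, against 49.1% of tested loci. Both old libraries lay above both young ones for 4 genes (FBXO32, KLF15, ANKRD1 and ANKRD2), against 7.3% of tested loci, and 3 did so under either rescaling. For 0 of the 10 both old libraries lay below both young ones, against 6.46% of loci. Because the genes were chosen with these values known, nothing is read from these shares.

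Past 2-fold on FPKM + 1, 3 genes were higher in old skin in number 1 (ANKRD1, ANKRD2 and CSRP3), against 2.36% of tested loci, and MSTN was lower, against 1.83%. In number 2, 5 were higher (TRIM63, FBXO32, FOXO1, KLF15 and ANKRD2), against 4.33%, and MSTN was again lower, against 5.55%. ANKRD2 was past 2-fold higher in both numbers, as were 0.314% of tested loci. The median log2 ratio of the 10 genes was 0.06 in number 1 and 1.13 in number 2, beside 0.07 and -0.06 over all tested loci. Over the 22 skeletal muscle fibre loci it was 0.46 and 0.99. The ratios of all tested loci ran from -0.61 to 0.74 (5th to 95th percentile) in number 1 and from -1.04 to 0.93 in number 2.

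The order of the genes by level also differed between libraries. CSRP3 was the highest in old 1, followed by FBXO32, and TRIM63 was the highest in old 2, followed by FBXO32. CSRP3 was the highest in both young libraries, followed by FBXO32 in young 1 and TRIM63 in young 2. Summed over the 10 genes, the level was 231 FPKM in old 1 and 427 FPKM in old 2, against 164 FPKM in young 1 and 104 FPKM in young 2. TRIM63 made up 3.32% of that sum in old 1 and 58.4% in old 2, against 8.04% in young 1 and 7.58% in young 2. The lowest place went to ANKRD2 in old 1 and in both young libraries, and to MSTN in old 2. The neighbours FOXO1 and FOXO3 changed places between the 2 old libraries, and in young 1 they stood at 24.8 and 23.7 FPKM, so their order did not exceed the spread between libraries.

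**Figure D3:**
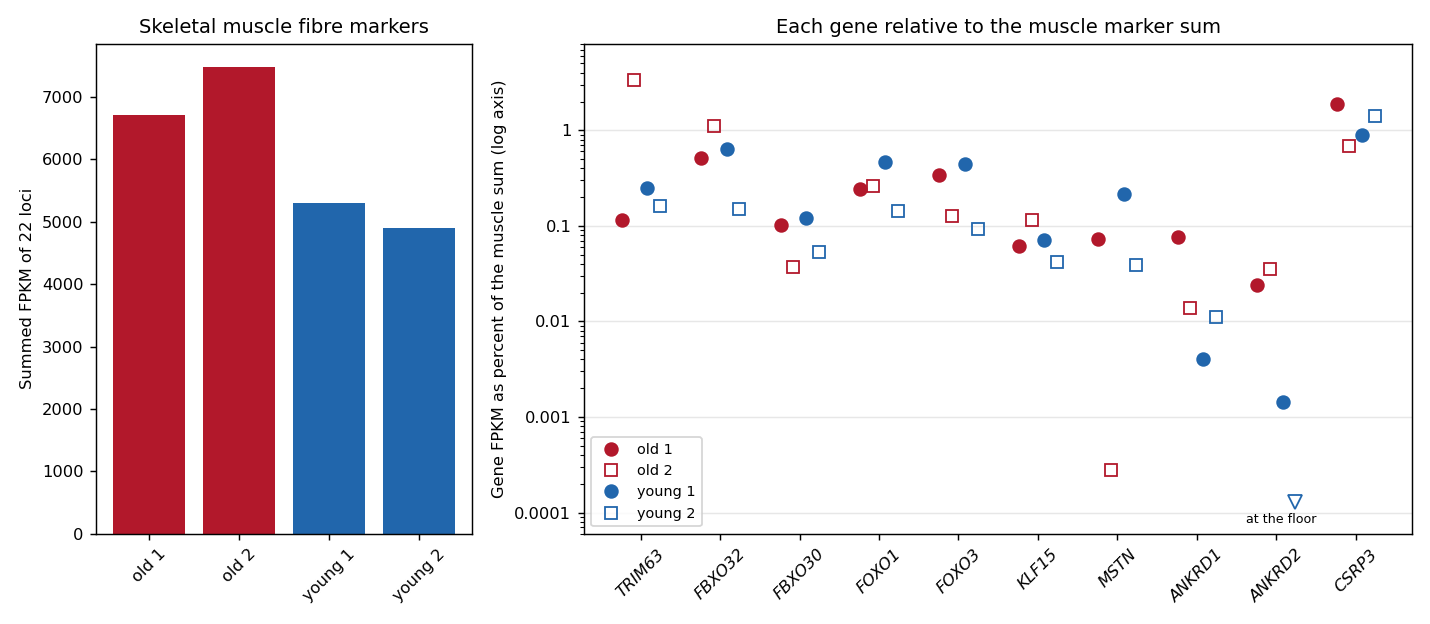
Left, summed FPKM of 22 skeletal muscle fibre loci in each library; right, each gene as percent of that sum on a log axis, with filled circles for number 1 and hollow squares for number 2. TRIM63 reaches 3.34% in old 2, and the triangle marks ANKRD2 in young 2, which is at the floor and is drawn at the lower edge, not at its value.

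Relative to the muscle fibre marker sum, the TRIM63 contrast between the numbers stayed wide. TRIM63 equalled 0.114% of the sum in old 1 and 3.34% in old 2, against 0.249% in young 1 and 0.160% in young 2, so that it was 2.18-fold lower in old skin in number 1 and 20.8-fold higher in number 2. FBXO32 relative to the sum was 0.818 of its young level in number 1 and 7.26-fold higher in old skin in number 2. FBXO30 relative to the sum was lower in old skin in both numbers, at 0.831 and 0.704 of its young level. KLF15 was 0.864 of its young level in number 1 and 2.72-fold higher in number 2, and on this scale its ages overlapped. ANKRD1 was 18.7-fold and 1.23-fold higher, and ANKRD2 17.0-fold higher in number 1. MSTN was 2.96-fold and 141-fold lower. The part of muscle content in the age differences of the 10 genes was not tested beyond this division.

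**Figure D4:**
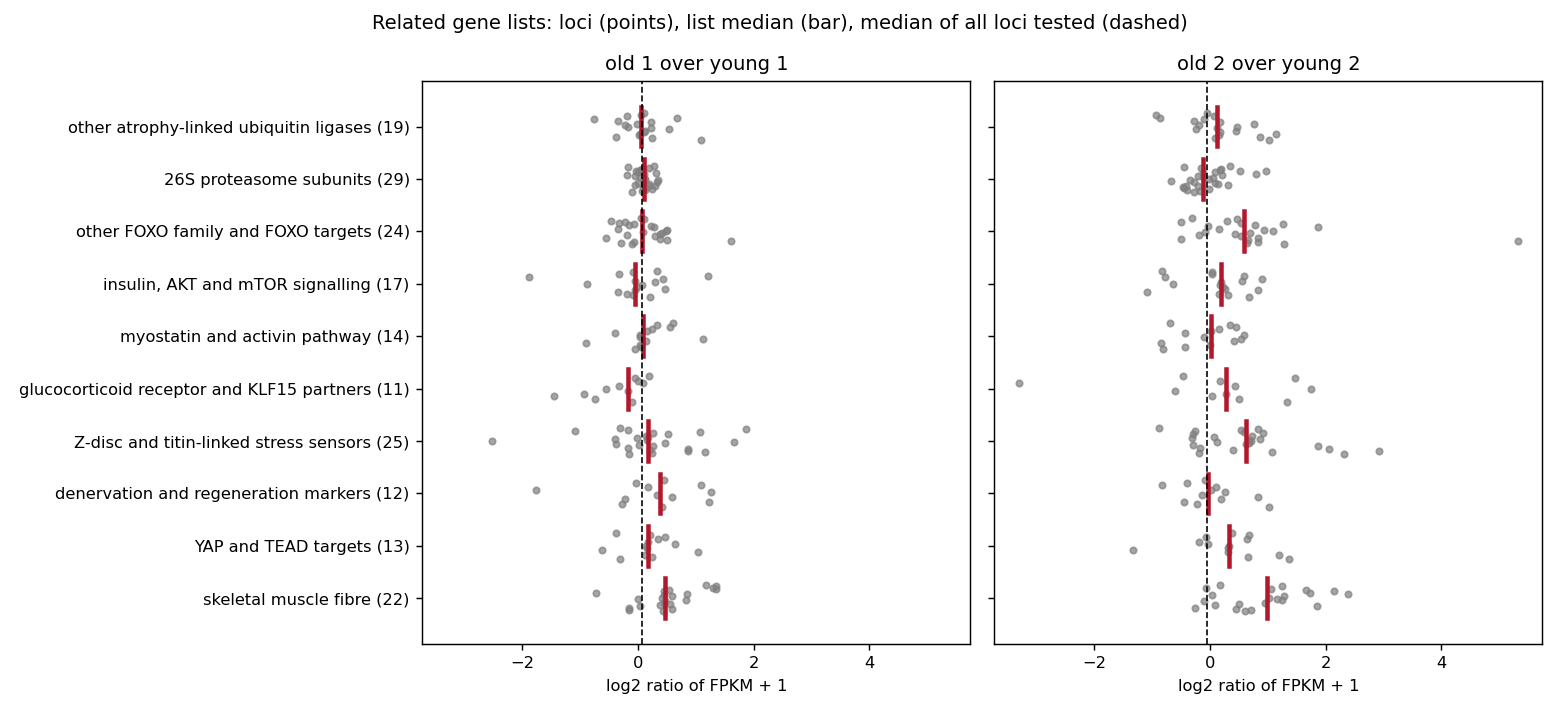
Log2 ratio of FPKM + 1, old over young, of each tested locus (grey points) of the pathway lists and the skeletal muscle fibre list in number 1 (left) and number 2 (right), with the median of each list as a red bar and of all tested loci as a dashed line; numbers in brackets count loci. The FOXO target list stands at 0.07 in number 1 and 0.58 in number 2.

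The pathways around these genes were described by lists, none of which had a locus called by limma in either direction. All lists, those of cell types included, were chosen with earlier results of these libraries known, so nothing is read from their shares. Other FOXO family members and FOXO targets had a median log2 ratio of 0.07 in number 1 and 0.58 in number 2 over 24 tested loci. Past 2-fold higher in old skin stood 1 of the 24 in number 1, PDK4, against 2.36% of all tested loci. In number 2 there were 5, PDK4, IRS2, TXNIP, GADD45A and INSR, against 4.33% of all tested loci. Past 2-fold lower were 0 in either number, against 1.83% and 5.55%. Both old libraries lay above both young ones for 7 of the 24, against 7.3% of all tested loci. PDK4, the kinase that holds back pyruvate oxidation in fasting, stood at 48.2 and 161 FPKM in old skin, against 15.1 and 3.07 FPKM in young skin. Its groups did not overlap, and its log2 ratios were 1.61 and 5.31. TXNIP, an inhibitor of glucose uptake, had the highest mean of the list, at 426 and 529.7 FPKM in old skin against 455 and 217 FPKM in young skin, and its groups overlapped. KLF4, a factor of epithelial differentiation, followed with 53.4 and 133 FPKM against 65.9 and 85.3 FPKM.

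Among 19 tested ligases and adaptors other than the 3 described, 1 was past 2-fold higher in old skin in number 1 and 2 in number 2. These counts stand against 2.36% and 4.33% of all tested loci. None was past 2-fold lower in either number, against 1.83% and 5.55%. KLHL41, a stabiliser of the thin filament, stood at 225 and 83.6 FPKM in old skin, against 105.0 and 40.5 FPKM in young skin. It was higher in old skin in both numbers, but the groups overlapped. STUB1, a ligase that works with heat shock proteins, stood at 16.5 and 41.0 FPKM against 13.9 and 38.5 FPKM, and was higher in number 2 at both ages. The close relatives of TRIM63 did not share its level in old 2: TRIM54 stood at 16.4 and 18.2 FPKM in old skin against 21.6 and 9.49 FPKM in young skin, and TRIM55 at 5.97 and 0.295 FPKM against 3.34 and 1.34 FPKM.

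Proteasome subunits, which degrade what the ligases mark, stayed close to level. Of 29 tested, 0 were past 2-fold in either direction in either number, and the median log2 ratios were 0.10 and -0.12. Of all tested loci, 2.36% were past 2-fold higher in old skin in number 1 and 4.33% in number 2, and 1.83% and 5.55% lower. PSMB4, a subunit of the core particle, stood at 93.0 and 107 FPKM in old skin, against 100.2 and 129.7 FPKM in young skin. PSMB5, a catalytic subunit whose locus is joined with another gene in the tables, stood at 82.9 and 119 FPKM against 78.7 and 135 FPKM.

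Upstream of the FOXO factors, 17 loci of insulin, AKT and mTOR signalling had medians of -0.06 and 0.19. Past 2-fold, 1 was higher and 1 lower in old skin in number 1, against 2.36% and 1.83% of all tested loci. In number 2, 0 were higher and 1 lower, against 4.33% and 5.55%. Both old libraries lay above both young ones for 2 of the 17 and below them for 2, against 7.3% and 6.46% of all tested loci. DDIT4, an inhibitor of mTOR induced by stress, stood at 55.8 and 65.8 FPKM in old skin, against 48.3 and 40.7 FPKM in young skin, with both old libraries above both young ones. AKT1, the kinase itself, stood at 28.5 and 44.2 FPKM against 30.5 and 35.6 FPKM, and its groups overlapped. IGF1, the growth factor that activates the pathway, stood at 1.97 and 1.29 FPKM in old skin, against 9.96 and 2.92 FPKM in young skin, with both old libraries below both young ones.

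Around MSTN, 14 tested loci of the myostatin and activin pathway had medians of 0.09 and 0.01. In number 1, 1 was past 2-fold higher in old skin, against 2.36% of all tested loci. DCN, decorin, a matrix proteoglycan that binds myostatin, stood at 197 and 140 FPKM in old skin, against 204 and 248 FPKM in young skin. LTBP3, a latent TGF-beta binding protein, stood at 17.2 and 12.6 FPKM against 16.6 and 17.2 FPKM. Both old libraries lay below both young ones for DCN and overlapped with them for LTBP3.

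Around KLF15, 11 tested loci of glucocorticoid response had medians of -0.17 and 0.28. In number 1, 1 was past 2-fold lower in old skin, against 1.83% of all tested loci. In number 2, 3 were past 2-fold higher and 1 lower, against 4.33% and 5.55%. DUSP1, a phosphatase induced by glucocorticoids, stood at 46.4 and 48.6 FPKM in old skin, against 49.7 and 18.6 FPKM in young skin. TSC22D3, known as GILZ, stood at 18.9 and 55.8 FPKM against 32.3 and 39.2 FPKM, and the ages overlapped for both genes. FKBP5, which binds the glucocorticoid receptor, stood at 6.32 and 20.8 FPKM against 9.76 and 5.49 FPKM. It was high in old 2 and lowest in young 2, and its groups overlapped because old 1 lay below young 1. The locus past 2-fold lower in number 2 was CEBPB, at 7.17 and 0.852 FPKM in old skin against 6.71 and 17.2 FPKM in young skin. In number 1 it was KLF9, at 23.5 and 28.3 FPKM against 66.3 and 27.6 FPKM.

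Genes of the Z-disc and of titin-linked stress sensing, the setting of ANKRD1, ANKRD2 and CSRP3, had medians of 0.18 and 0.62 over 25 tested loci. Past 2-fold, 4 were higher and 2 lower in old skin in number 1, against 2.36% and 1.83% of all tested loci. In number 2, 5 were higher and 0 lower, against 4.33% and 5.55%. HSPB1, a small heat shock protein that keratinocytes also express, stood at 98.6 and 2124 FPKM in old skin, against 109.8 and 426 FPKM in young skin, and was high in number 2 at both ages. CRYAB, alpha-B crystallin, stood at 70.7 and 377 FPKM against 38.5 and 49.0 FPKM, with both old libraries above both young ones. FHL1, a LIM protein, stood at 659 and 130 FPKM against 555 and 149 FPKM, and was high in number 1 at both ages. ANKRD23, the relative of ANKRD1 and ANKRD2 in the same family, stood at 2.97 and 3.95 FPKM in old skin, against 3.46 and 2.41 FPKM in young skin, and its groups overlapped.

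Denervation and regeneration markers had medians of 0.37 and -0.03 over 12 tested loci. The locus that joins MYH3 and MYH8, the myosins of embryonic and neonatal fibres, with MYH1, MYH13 and further identifiers stood at 227 and 149 FPKM in old skin, against 169 and 73.1 FPKM in young skin, and cannot be split by gene. MYF6, a myogenic factor of mature fibres, stood at 21.7 and 10.9 FPKM against 26.6 and 12.9 FPKM. MYOG, the factor that activates TRIM63 and FBXO32 in denervated mouse muscle, stood at 5.90 and 2.25 FPKM in old skin against 1.88 and 1.70 FPKM in young skin. Both old libraries lay above both young ones for 2 of the 12, MYOG among them, against 7.3% of all tested loci. The highest MYOG level was in old 1, not old 2. In both numbers 4 of the 12 were higher in old skin and 2 lower, MYF6 among the lower, against 26.7% and 23.1% of all tested loci. YAP and TEAD targets, among which ANKRD1 is also counted in other tissues, had medians of 0.17 and 0.33 over 13 tested loci, and CCN1 stood at 16.4 and 57.7 FPKM in old skin against 20.7 and 21.8 FPKM in young skin. TEAD4, a DNA-binding partner of YAP whose locus is joined with TULP3, stood at 20.5 and 21.8 FPKM against 17.2 and 13.5 FPKM, with both old libraries above both young ones.

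**Figure D5:**
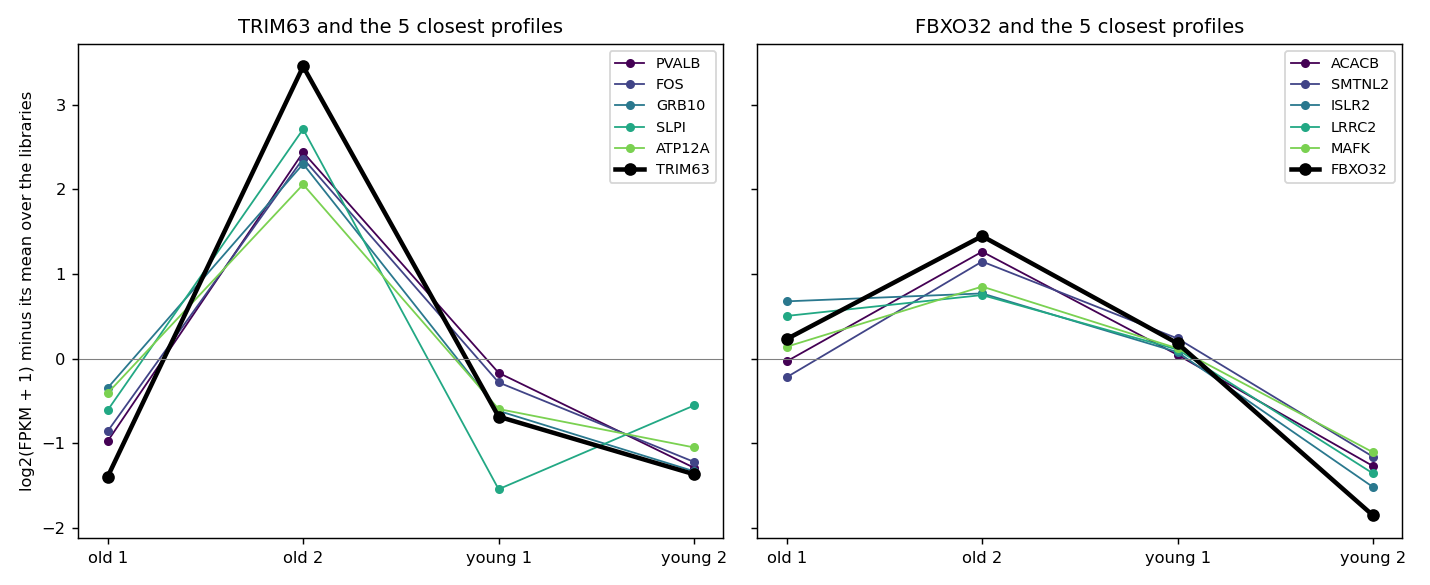
Profiles over the 4 libraries, log2(FPKM + 1) centred on the mean of each gene, of TRIM63 and FBXO32 and of the 5 loci closest to each. The loci closest to TRIM63 share its high value in old 2, and those closest to FBXO32 share its low value in young 2.

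The loci with profiles most like TRIM63 and FBXO32 were found over the 4 libraries by the root mean square distance of centred log2(FPKM + 1), among 9827 tested loci with a symbol. Closest to TRIM63 were PVALB (parvalbumin, the calcium buffer of fast fibres) at a distance of 0.609, the immediate early gene FOS at 0.644, GRB10 at 0.780, SLPI at 0.801 and ATP12A at 0.871. PVALB stood at 8.18 and 97.0 FPKM in old skin, against 15.1 and 6.39 FPKM in young skin, and FOS at 8.93 and 91.7 FPKM against 13.8 and 6.72 FPKM. Closest to FBXO32 were ACACB at 0.340, SMTNL2 at 0.441, ISLR2 at 0.442, LRRC2 at 0.451 and MAFK at 0.481. ACACB, the acetyl-CoA carboxylase of muscle mitochondria, stood at 6.44 and 17.3 FPKM in old skin, against 6.85 and 2.15 FPKM in young skin. A likeness over 4 libraries is a description only.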

How the data were processed

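RNA of naked mole-rat dorsal skin was sequenced by paired-end reads after Ribo-Zero treatment, per the labels' protocols. Reads passed through cutadapt, FastQC, Bowtie2 and TopHat2, in an order not stated, per the submitters' processing notes. Which build, annotation and quantifier were used is not given in the sources used here. In 4 tables the authors deposited FPKM, 1 value for each of 24514 loci, with a floor of 0.0001, and 0 columns belonged to other samples. Genes were matched by name, and loci shared by several names count once in a list. limma 3.58.1 in R 4.3.3 was fitted to log2(FPKM + 1) for loci averaging 1 FPKM or more, with age as the term, a mean-variance trend, a two-sided test and a threshold of 0.05 after Benjamini-Hochberg adjustment, and was tested on simulated data. Ratios within a number have no replicate. Python 3.11.15 made the tables and figures.

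The 10 genes and all lists were chosen with earlier results of these data known. The text names all 10 genes, the 2 genes of highest mean in each pathway or cell type list, and 5 nearest profiles each for TRIM63 and FBXO32. PDK4, IRS2, GADD45A, INSR, TRIM54, TRIM55, IGF1, FKBP5, CEBPB, KLF9 and CRYAB were added after their values were seen. So were ANKRD23, MYOG, COL1A2, FBLN1, KRT5, DSP, ITGA6, TP63, NPPA, MYL4 and MYL7. Other settings were pseudocount, filter, scaling, trend, table number as a block, each library left out, and fold thresholds. The labels do not tie equal table numbers to a shared animal or day.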

Additional observations from a re-analysis of the deposited data

Results flagged for a closer look

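For 4 of the 10 genes the old library stood above the young library in 1 number and below it in the other, as did 49.1% of all tested loci. The log2 ratio of old over young in number 2 minus that in number 1 was 5.53 for TRIM63, 1.92 for FOXO1, 0.95 for FOXO3 and -1.84 for CSRP3. With 1 library per age in each number, these differences were not tested.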

How the results depend on the processing

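limma called 0 loci in the fit reported, 3 with table number as a replicate block, 0 with that block once small structural and mitochondrial RNAs were left out, and 0 to 38 when 1 library was left out. Of the 10 genes it called 0 in the fit reported and under both blocks, and 0 to 1 when 1 library was left out, the 1 being TRIM63 without old 1. When 1 library was left out, the log2 difference of old minus young ran from -0.37 to 4.48 for TRIM63, from -0.46 to 0.60 for FBXO30, from -0.44 to 1.24 for FOXO1, from -0.65 to 1.5 for FOXO3 and from -0.16 to 1.13 for CSRP3, and these 5 genes changed sign. The other 5 kept their sign but not their size, from -2.55 to -0.04 for MSTN, 0.66 to 2.69 for FBXO32, 0.43 to 1.32 for KLF15, 0.56 to 2.15 for ANKRD1 and 1.34 to 1.82 for ANKRD2. Genes past 2-fold numbered 4 in number 1 and 6 in number 2. With a mean of at least 5 FPKM, which leaves 5 of the 10 genes, they numbered 1 and 3, and past 4-fold 1 and 2. With a pseudocount of 0.1 the log2 ratios of low genes were wider, at 4.04 for ANKRD1 in number 1, 3.30 and 4.78 for ANKRD2, and -4.06 for MSTN in number 2. FBXO32 in number 1 was -0.02 under both rescalings. Each gene had 1 locus, so summing loci altered none. Leaving out a library also unbalances the numbers, so the difference then takes in part of the offset between numbers. FBXO30 changed sign though its log2 ratio of old over young was 0.07 in both numbers. Its offset, number 2 minus number 1, was -1.04 in old skin and -1.05 in young skin. The part of this offset in the shifts of the other genes was not tested. FPKM without counts hides depth, so ANKRD1, ANKRD2 and MSTN in old 2 are the least certain values.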

Other observations

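Outside muscle, the collagen genes of fibroblasts were lower in both old libraries than in both young ones, with 0 of the 8 fibroblast markers called by limma. COL1A1 stood at 196 and 41.4 FPKM in old skin, against 2079 and 4121 FPKM in young skin, and COL3A1 at 223 and 20.8 FPKM against 2734 and 2623 FPKM. The epidermal keratin KRT10 stood at 1323 and 3693 FPKM in old skin, against 1285 and 3823 FPKM in young skin, and the locus of KRT1 and KRT77 at 814 and 1224 FPKM against 726 and 1209.5 FPKM, and both were higher in number 2 at both ages. Elsewhere in the epidermis the order differed: KRT5 stood at 699.5 and 402 FPKM in old skin against 662 and 1361 FPKM in young skin, and DSP at 252 and 145 FPKM against 333 and 143 FPKM. Of the adipocyte genes, FABP4 stood at 246 and 95.1 FPKM against 147 and 105 FPKM, and ADIPOQ at 226 and 8.41 FPKM against 154 and 45.1 FPKM. The endothelial genes VWF (23.4 and 21.7 FPKM in old skin, 30.1 and 22.2 FPKM in young skin) and CLDN5 (12.8 and 20.0 FPKM against 18.9 and 18.6 FPKM) overlapped between ages.

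Smooth muscle markers summed to 355 and 449 FPKM in old skin, against 198 and 241 FPKM in young skin, while the median log2 ratio of the 7 tested loci was 0.04 in number 1 and -1.18 in number 2. Most of the sum was DES, desmin, which skeletal fibres share, at 303 and 416 FPKM against 146 and 182 FPKM. TAGLN, whose locus is joined with another identifier, stood at 11.5 and 20.9 FPKM against 10.9 and 20.4 FPKM. Cardiac markers summed to 46.1 and 18.0 FPKM against 21.0 and 22.6 FPKM, and their highest loci join MYH6 with MYH7, a gene of slow skeletal fibres, and TNNT2 with LAD1.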
